A study of Homo sapiens with 31 samples.

Results

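The genes described here are 90 zinc finger genes that were expressed in at least 1 of 5 colon-derived cell lines and close to silent in at least 1 other. They were taken from the 493 measured genes whose symbol is ZNF followed by a number, out of 17113 protein-coding genes in the table. A gene was kept when its mean level reached 5 counts in 1000000 (CPM) in the highest line and was 0.5 CPM or less in the lowest, the mean being taken over the 3 unmixed libraries of each line. Of the 493 genes, 380 reached 5 CPM in some line, and 90 of these (23.7%) met the lower limit in another. Among genes of other names the same 2 limits kept 2363 of 11924 (19.8%). The 90 genes are called the selected genes below, and a line with a mean of 0.5 CPM or less is called low for that gene. Because the unmixed libraries chose the genes, their levels there are given as a description and without a test.

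The study sequenced total RNA from 4 colorectal adenocarcinoma lines and from CCD841CoN, labelled as a normal colon line, and from mixtures of the 2 kinds of RNA, with the aim of estimating the cancer-derived share by computation. The cancer lines were LoVo, HT-29 and HCT116, labelled as colon, and LS1034, labelled as cecum. All lines were labelled as wild type and untreated, and each had 3 unmixed libraries, which gives 15. A further 16 libraries held RNA of 1 cancer line at 0.1%, 1%, 10% or 50%, with CCD841CoN RNA making up the rest, and there was 1 library for each line and percentage. Nothing in the labels tells separate cultures from repeat preparations, so the spread within a line may be technical. Nor do they say whether the mixtures used the same RNA as the unmixed libraries.

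Library totals ranged from 9688765 to 56741879 counts. The cancer lines carried epithelial markers, with a summed level of 6 genes of 2822 to 22611 CPM. In CCD841CoN that sum was 211 to 265 CPM, 4 of 5 intestinal transcription and brush border markers had no count, and 8 fibroblast markers summed to 32300 to 38811 CPM, against 1.51 to 38.4 CPM in the cancer lines. The contrast between CCD841CoN and the cancer lines is therefore also a contrast between marker profiles, and the part of cell type in the differences described below was not tested. For all gene comparisons in bulk RNA, fewer expressing cells and less RNA per cell cannot be told apart.

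Genes named ZNF encode proteins with zinc fingers, small folds held together by a zinc ion that read DNA, mostly of the C2H2 type. The largest human group also carries a KRAB domain. That domain binds the co-repressor TRIM28, which brings the histone methyltransferase SETDB1 and other heterochromatin factors to the bound DNA, and many of its targets are transposable elements. Most genes of the group arose by tandem duplication, and chromosome 19 holds large clusters of them. Many have CpG-containing promoters, and loss of expression of such genes has been described in colorectal and other cancers.

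LoVo was the line in which the selected genes were most often low, and CCD841CoN the line in which they were least often low. LoVo was low for 60 of the 90 genes (66.7%), HCT116 for 44 (48.9%), LS1034 for 41 (45.6%), HT-29 for 30 (33.3%) and CCD841CoN for 9 (10.0%). Among the 2363 other genes of the same limits, LoVo was low for 37.7% and CCD841CoN for 49.5%. The median of the 90 line means was 0.134 CPM in LoVo, 0.734 in HCT116, 1.12 in LS1034, 1.68 in HT-29 and 6.92 in CCD841CoN. CCD841CoN was the highest line for 37 genes, LS1034 for 20, HCT116 for 16, HT-29 for 10 and LoVo for 7.

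**Figure D1:**
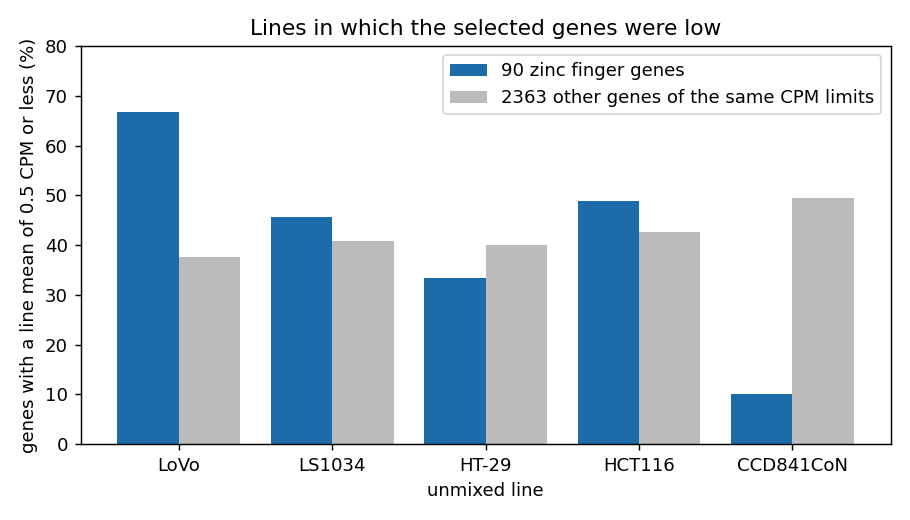
Share of genes (%) with a line mean of 0.5 CPM or less in each unmixed line (bars, 1 value per line), for the 90 selected zinc finger genes in blue and for the 2363 other genes that met the same limits in grey. LoVo (66.7%) stands highest and CCD841CoN (10.0%) lowest among the zinc finger genes, while the grey bars run from 37.7% to 49.5%.

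The summed level of the 90 genes was 272 ± 45.7 CPM in LoVo (mean ± SD, n = 3), 328 ± 78.2 in HT-29, 497 ± 146 in LS1034, 525 ± 171 in HCT116 and 826 ± 52.9 in CCD841CoN. The sum over all 493 zinc finger genes had another order, being lowest in CCD841CoN at 4786 ± 129 CPM and 7877 ± 1605 CPM in LoVo. The selected genes thus made up a small part of the zinc finger counts in every line. CCD841CoN had the highest CPM sum for them and the lowest for all zinc finger genes. These sums are shares of the library total and depend on scaling. With library size alone the median gene was 0.45 to 0.56 log2 higher in a cancer line than in CCD841CoN, against 0.06 to 0.11 with DESeq2 size factors. How much of the order of the sums comes from this shift was not tested. Per kilobase of exon, the level in the highest line ran from 0.405 CPM for ZNF891 to 14.96 CPM for ZNF165, with a median of 2.08.

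Sorting the genes by the lines in which they were low gave 15 different sets. The largest held 22 genes that were low in LoVo alone, 24.4% of the 90, against 3.47% of the other genes of the same limits. Next came 13 genes low in all 4 cancer lines (14.4%, against 11.8% of the other genes) and 9 genes low in LoVo and HCT116 (10.0%, against 1.82%). Further sets held 8 genes low in LS1034 alone, 7 in HCT116 alone and 6 in CCD841CoN alone, the last being 6.67% of the selected and 21.2% of the other genes. The other 9 sets held 25 genes between them. In all, 81 genes were low in a cancer line and above the lower limit in CCD841CoN.

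**Figure D2:**
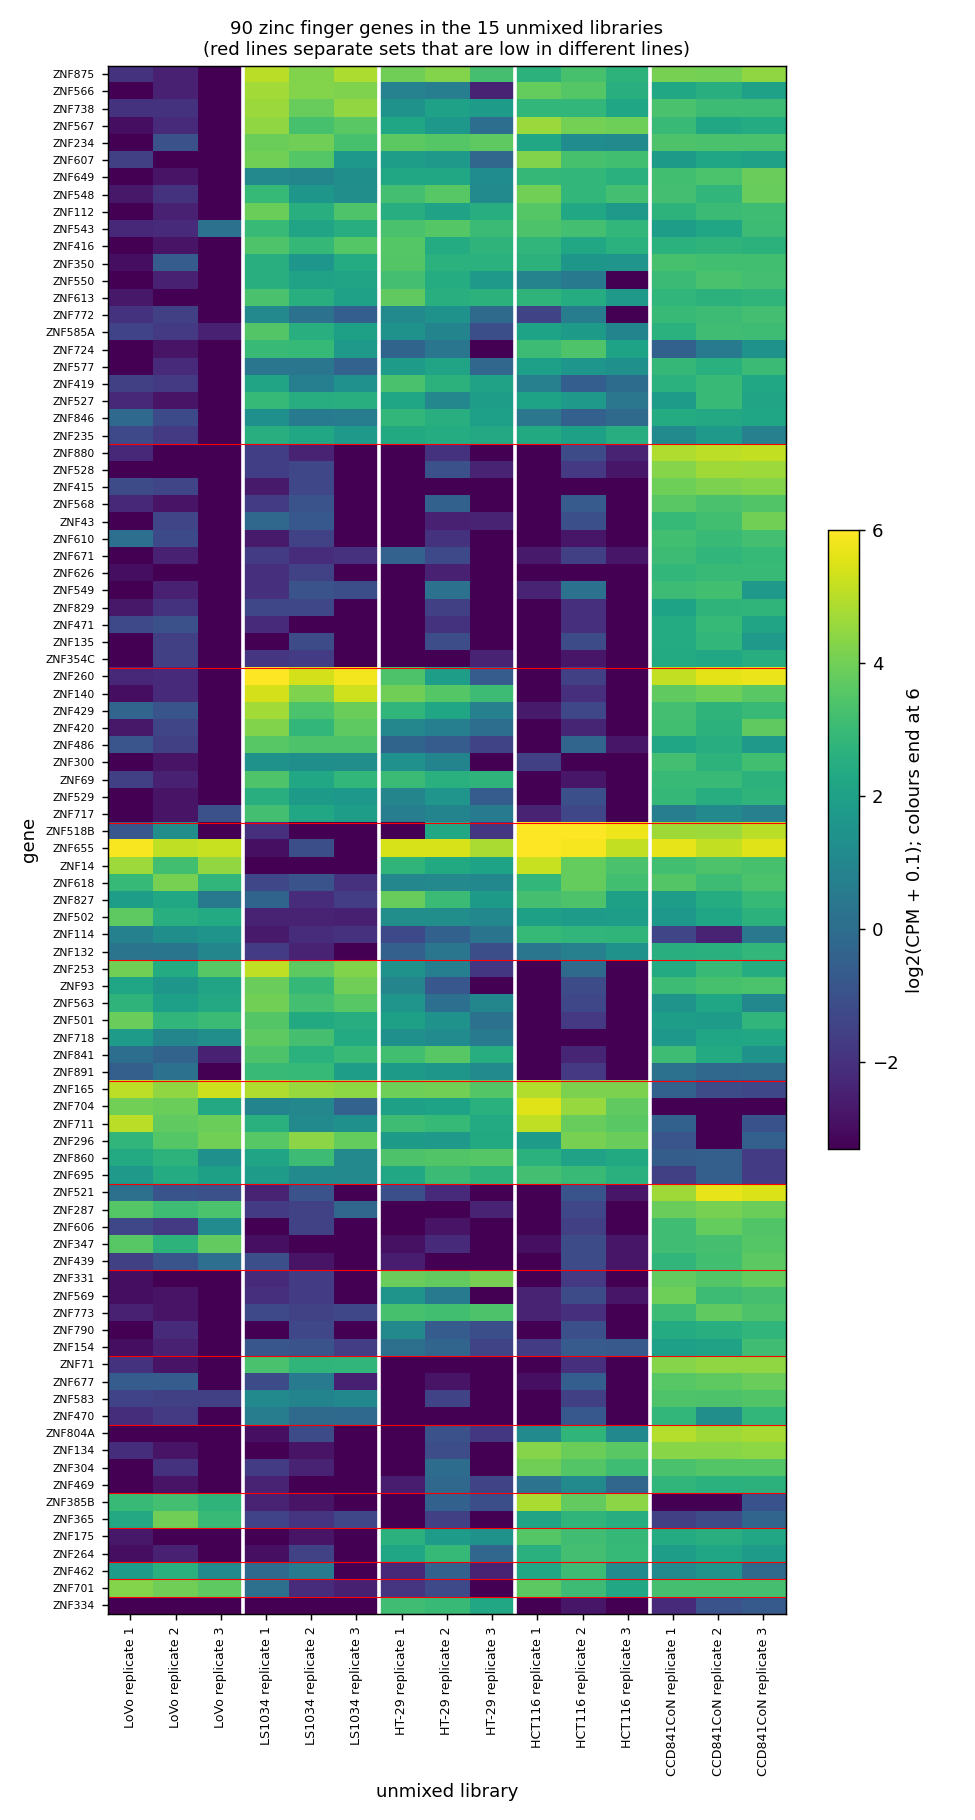
Level of each selected gene (rows) in each unmixed library (columns, 3 per line), as log2(CPM + 0.1) in colour, with red lines between sets of genes that are low in the same lines and white lines between cell lines. The top block of 22 genes is dark across the LoVo libraries, where the highest single value is 1.04 CPM, for ZNF543 in replicate 3, and the block of 13 genes below it is bright in CCD841CoN.

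Of the genes low in LoVo alone, ZNF875 had the highest level elsewhere. Its 3 LoVo libraries held 0.160, 0.0805 and 0 CPM, and its LS1034 libraries 32.8, 18.9 and 28.7 CPM. CCD841CoN held 16.8, 16.5 and 21.9 CPM of it, HT-29 15.5, 19.4 and 9.44, and HCT116 6.30, 9.75 and 6.48, so every library outside LoVo was at least 6.30 CPM. ZNF566 was at 0, 0.0805 and 0 CPM in LoVo and at 25.9, 19.2 and 18.1 CPM in LS1034, but HT-29 was also near the limit, at 1.67, 1.48 and 0.0926 CPM. ZNF738 was at 0.160, 0.161 and 0 CPM in LoVo, and its libraries in the other 4 lines lay between 2.61 and 24.0 CPM. ZNF350, a KRAB protein known as ZBRK1 that binds BRCA1, also belongs to this set, with a mean of 0.197 CPM in LoVo and 9.25 CPM in CCD841CoN.

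The genes low in LoVo and HCT116 include some of the most strongly expressed of the 90. ZNF260 was at 0.107, 0.121 and 0 CPM in LoVo and at 0, 0.243 and 0 in HCT116, against 109, 42.0 and 56.9 in LS1034 and 35.1, 48.6 and 53.5 in CCD841CoN. HT-29 was intermediate and uneven, at 10.4, 3.65 and 0.556 CPM. ZNF140, a KRAB repressor, was at 0.0267, 0.121 and 0 CPM in LoVo and 0, 0.146 and 0 in HCT116. Its LS1034 libraries held 42.5, 18.3 and 40.2 CPM, and the lowest of the HT-29 and CCD841CoN libraries held 8.24 CPM, so the low and the other lines did not overlap. ZNF429, the third of this set by level, had means of 0.388 CPM in LoVo, 0.117 in HCT116 and 17.1 in LS1034. ZNF420, described as a KRAB repressor of p53 target genes, averaged 0.112 CPM in LoVo and 0.0324 in HCT116 and 9.45 in CCD841CoN.

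The 13 genes low in all 4 cancer lines were by construction expressed in CCD841CoN. ZNF880 led with 29.6, 33.2 and 35.7 CPM in CCD841CoN, and its highest cancer library, HCT116 replicate 2, held 0.340 CPM. ZNF528 had 19.7, 25.4 and 24.7 CPM in CCD841CoN, no count in the 3 LoVo libraries, and at most 0.401 CPM in any other cancer library. ZNF415 had 15.2, 17.9 and 19.2 CPM in CCD841CoN and no count in any HT-29 or HCT116 library. ZNF671, whose promoter methylation has been described in several cancers, and ZNF568, a KRAB protein known from repression in early development, were among the others, at 7.51 and 11.02 CPM in CCD841CoN. A further 19 zinc finger genes had the same pattern at 1 to 5 CPM in CCD841CoN and were too low to be selected.

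LS1034 alone was low for 8 genes. ZNF518B, whose protein has been linked to the histone methyltransferase G9a, held 0.146, 0 and 0 CPM in LS1034 and 148, 87.1 and 54.6 CPM in HCT116, the highest mean of all 90 genes at 96.6 CPM. It was also little expressed in LoVo (0.481, 2.33 and 0 CPM) and in HT-29 (0, 4.77 and 0.185 CPM), where in each line replicate 2 stood above the others. ZNF655, whose protein binds the signalling protein Vav, had 0.0292, 0.375 and 0 CPM in LS1034 and 27.8 to 85.0 CPM in the other 12 libraries. ZNF14 had no count in the 3 LS1034 libraries and 4.17 to 36.8 CPM in the others.

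HCT116 alone was low for 7 genes, led by ZNF253, ZNF93 and ZNF563. ZNF253 was at 0, 0.825 and 0 CPM in HCT116 and at 34.8, 12.9 and 18.8 in LS1034. ZNF93, known for binding and repressing LINE elements, was at 0, 0.340 and 0 CPM in HCT116 and 8.36, 9.69 and 10.1 in CCD841CoN. HT-29 was low alone for 1 gene, ZNF462, a regulator of chromatin in development, at 0.104, 0.642 and 0.0926 CPM against 4.66, 8.30 and 2.17 in HCT116. The HCT116 mean was 5.05 CPM.

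Smaller sets showed other combinations. ZNF71 was low in LoVo, HT-29 and HCT116, with no count in HT-29, and stood at 9.81, 6.70 and 6.87 CPM in LS1034 and 19.6, 21.6 and 22.0 in CCD841CoN. ZNF331, a KRAB gene known for imprinted expression, was low in LoVo, LS1034 and HCT116, and its HT-29 (13.6 to 16.8 CPM) and CCD841CoN (11.1 to 13.7 CPM) libraries overlapped. ZNF134 was low in LoVo, LS1034 and HT-29 and had 19.5, 14.9 and 12.2 CPM in HCT116 and 20.3, 20.1 and 21.3 in CCD841CoN. ZNF521, a transcriptional cofactor of mesenchymal and blood progenitors, held 25.2, 50.2 and 45.1 CPM in CCD841CoN and at most 0.989 CPM in any cancer library. ZNF804A, known for brain expression and a psychiatric risk association, had no count in LoVo and 30.8, 25.1 and 27.1 CPM in CCD841CoN. ZNF175 and ZNF264 were low in LoVo and LS1034, with HCT116 means of 9.19 and 7.53 CPM, and ZNF701 was low in LS1034 and HT-29, with a LoVo mean of 16.03 CPM.

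The reverse pattern, low in CCD841CoN, was found for 9 genes. ZNF165, a SCAN domain protein described as a tumour and testis antigen, was at 0.649, 0.343 and 0.310 CPM in CCD841CoN and at 11.3 to 38.6 CPM in the 12 cancer libraries. ZNF704 had no count in CCD841CoN and 46.3, 23.6 and 13.1 CPM in HCT116, but only 1.75, 1.87 and 0.672 CPM in LS1034. ZNF711, an X-linked gene whose loss causes intellectual disability, was at 0.649, 0 and 0.413 CPM in CCD841CoN and highest in HCT116 (34.7, 14.2 and 12.3 CPM) and LoVo (32.4, 13.0 and 14.7 CPM). ZNF385B and ZNF365 were low in LS1034, HT-29 and CCD841CoN together, and ZNF385B reached 27.9, 13.5 and 20.6 CPM in HCT116. ZNF334 was found in HT-29 alone, at 8.70, 7.82 and 4.72 CPM, with no count in any LoVo or LS1034 library.

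The limits cut through a continuous range. ZNF860 (0.458 CPM in CCD841CoN), ZNF165 (0.434 CPM) and ZNF543 (0.421 CPM in LoVo) lay just inside the lower limit, and ZNF506 (0.516 CPM), ZNF211 (0.518 CPM) and ZNF85 (0.549 CPM) just outside. At the upper limit ZNF235 and ZNF462 (both 5.05 CPM) and ZNF354C (5.15 CPM) were inside, and ZNF560 (4.91 CPM), ZNF813 (4.90 CPM) and ZNF793 (4.77 CPM) outside. Under the limits, 98 further zinc finger genes were at 0.5 CPM or less in some line without reaching 5 CPM in any.

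The trace level of the low genes differed between the libraries of each cancer line. In all 4 cancer lines replicate 2 had the highest sum and the fewest genes with no count. The trace level thus went with the replicate number across lines, and the labels do not say what libraries of the same number shared. Of the 44 genes low in HCT116, 4 had no count in replicate 2, against 34 in replicate 1 and 35 in replicate 3, and they summed to 12.4 CPM there against 0.999 and 0.925 CPM. Of the 30 genes low in HT-29, 6 had no count in replicate 2, against 23 and 22, with sums of 8.502, 1.497 and 1.30 CPM. In LoVo and LS1034 replicates 1 and 2 were close in their sums and replicate 3 was the lowest library. The 60 genes low in LoVo summed to 7.75, 8.49 and 1.75 CPM in replicates 1, 2 and 3, and 22, 9 and 56 of them had no count. The 41 genes low in LS1034 summed to 7.59, 8.08 and 2.76 CPM, and 7, 6 and 30 had no count. The highest single value in a low line was 1.04 CPM, for ZNF549 in HT-29 replicate 2. Without HCT116 replicate 2 the limits kept 90 genes, 89 of them among the 90 selected, and without HT-29 replicate 2 they kept 93, of which 89 were selected. Without LoVo replicate 3 they kept 90 and without LS1034 replicate 3 they kept 93. Statements that a gene was low rest on the mean of 3 libraries, and absence of RNA cannot be read from them: 3 counts correspond to 0.0802 CPM in LoVo replicate 1 and to 0.278 CPM in HT-29 replicate 3.

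The selected genes lay mostly on chromosome 19. It held 65 of the 90 (72.2%), against 179 of the other 403 zinc finger genes (44.4%), by chromosome and gene order in the RefSeq annotation of GRCh38.p14, while the counts were made on hg19. LoVo was low for 53 of the 65 genes on chromosome 19 and for 7 of the 25 elsewhere, and HCT116 for 34 and 10. CCD841CoN was low for 1 of 65 on chromosome 19, ZNF296, and for 8 of 25 elsewhere. Many selected genes were neighbours: 56 of the 90 fell into 15 runs in which at most 2 other measured genes separated one selected gene from the next. Of the 41 neighbouring pairs in these runs, 14 (34.1%) were low in exactly the same lines, against 443 of all 4005 pairs of selected genes (11.1%). The neighbouring pairs lay almost all on chromosome 19, whereas the 4005 pairs include the 25 genes elsewhere, for which LoVo was less often low. The 2 shares are therefore not like for like, and pairs within chromosome 19 were not compared separately.

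The longest run held 12 selected genes over 18 measured genes, from ZNF566 to ZNF569, and LoVo was low for all 12. HCT116 was low for 7 of them, LS1034 for 4, HT-29 for 2 and CCD841CoN for none. Within it ZNF585B and ZNF383 lay between low genes and were expressed in LoVo, at means of 4.64 and 3.73 CPM, while ZNF585A and ZNF875 on either side of that pair averaged 0.183 and 0.0803 CPM. In LS1034 the same run alternated, with ZNF260 at 69.4 CPM, ZNF790, ZNF829 and ZNF568 at 0.0972 to 0.207 CPM, and ZNF420 at 12.9 CPM. A second run of 7 selected genes, from ZNF772 to ZNF134, was low in LoVo throughout, and its neighbour ZIK1, a KRAB zinc finger gene outside the naming rule, averaged 9.48 CPM in CCD841CoN and at most 0.0401 CPM in a cancer line.

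**Figure D3:**
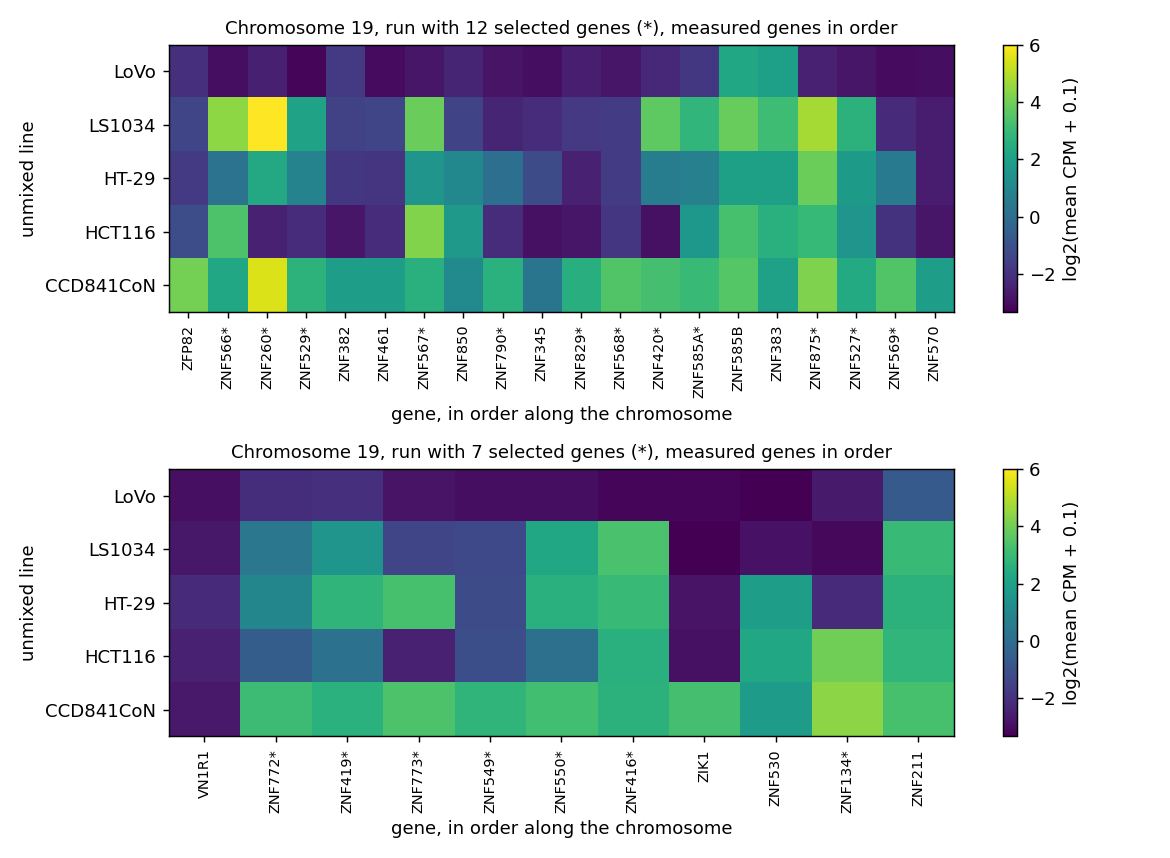
Mean level in each unmixed line (rows, n = 3 libraries) of the measured genes along 2 stretches of chromosome 19 (columns, in order, not to scale), as log2(CPM + 0.1) in colour, with an asterisk on the selected genes. In the upper panel LoVo is dark for all but ZNF585B (4.64 CPM) and ZNF383 (3.73 CPM), and in the lower panel LoVo stays dark as far as ZNF134.

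Shorter runs also lay beside expressed genes. ZNF577, ZNF649, ZNF613 and ZNF350, adjacent among the measured genes, were low in LoVo alone, at means of 0.0134 to 0.197 CPM, and the next gene, ZNF615, averaged 5.64 CPM in LoVo. ZNF610, ZNF880 and ZNF528 were low in all 4 cancer lines, beside ZNF480, which was at 12.4 to 53.2 CPM in all 5 lines. Over all runs, 38 zinc finger genes lay between or beside selected genes without being selected. Of these, 18 were above 0.5 CPM in all 5 lines. The other 20 were, like the selected genes, at 0.5 CPM or less in at least 1 line. They were left out because they stayed under 5 CPM in every line. Exons of 24 of the 90 genes overlap exons of another coding gene, and how reads shared by such genes or by close paralogs were counted is not given in the sources used here, so levels of neighbouring family members are uncertain to that extent.

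Promoter sequences were examined because genes lying close together differed in the same line. The 250 bases before the RefSeq start of 7 genes are printed below, 5′ to 3′ on the strand of the gene and in lower case, with each CG dinucleotide, the site of DNA methylation, in capitals. ZNF613 (low in LoVo) and ZNF615 (expressed in LoVo, the first measured gene beyond that run) are shown as a contrast, ZNF880 and ZNF528 as neighbours low in all 4 cancer lines, ZNF260 and ZNF140 as the leading genes low in LoVo and HCT116, and ZNF14 as a gene with no count in LS1034. Their positions in GRCh38.p14 are ZNF613 at chr19:51927222-51927471 on the plus strand, ZNF615 at chr19:52008212-52008461 on the minus strand, ZNF880 at chr19:52369673-52369922 on the plus strand, ZNF528 at chr19:52397599-52397848 on the plus strand, ZNF260 at chr19:36528272-36528521 on the minus strand, ZNF140 at chr12:133080673-133080922 on the plus strand, ZNF14 at chr19:19733113-19733362 on the minus strand.
ZNF613: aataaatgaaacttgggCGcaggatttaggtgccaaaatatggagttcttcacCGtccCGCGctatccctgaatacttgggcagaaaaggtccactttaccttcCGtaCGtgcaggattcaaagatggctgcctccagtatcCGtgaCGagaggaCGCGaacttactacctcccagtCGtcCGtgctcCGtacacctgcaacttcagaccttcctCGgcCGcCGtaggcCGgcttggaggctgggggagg
ZNF615: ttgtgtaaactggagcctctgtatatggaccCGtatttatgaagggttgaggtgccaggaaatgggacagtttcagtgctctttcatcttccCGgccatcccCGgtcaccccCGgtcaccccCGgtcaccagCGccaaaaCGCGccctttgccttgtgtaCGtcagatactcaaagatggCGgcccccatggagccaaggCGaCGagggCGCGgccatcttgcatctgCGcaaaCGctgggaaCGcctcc
ZNF880: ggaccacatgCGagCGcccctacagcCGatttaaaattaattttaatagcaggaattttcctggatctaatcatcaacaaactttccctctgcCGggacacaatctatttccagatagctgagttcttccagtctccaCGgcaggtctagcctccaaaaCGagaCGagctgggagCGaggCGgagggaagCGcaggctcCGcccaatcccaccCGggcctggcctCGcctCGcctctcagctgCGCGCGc
ZNF528: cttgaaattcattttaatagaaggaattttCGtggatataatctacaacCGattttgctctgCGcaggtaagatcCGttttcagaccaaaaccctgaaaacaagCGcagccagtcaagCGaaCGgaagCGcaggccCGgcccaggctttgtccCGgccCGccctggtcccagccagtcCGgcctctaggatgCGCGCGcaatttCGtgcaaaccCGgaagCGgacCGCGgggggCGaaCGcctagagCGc
ZNF260: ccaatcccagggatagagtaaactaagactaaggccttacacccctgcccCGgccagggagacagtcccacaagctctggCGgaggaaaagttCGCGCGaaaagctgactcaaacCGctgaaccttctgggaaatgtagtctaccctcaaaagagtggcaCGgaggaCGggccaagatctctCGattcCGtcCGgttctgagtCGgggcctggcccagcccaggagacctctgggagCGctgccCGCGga
ZNF140: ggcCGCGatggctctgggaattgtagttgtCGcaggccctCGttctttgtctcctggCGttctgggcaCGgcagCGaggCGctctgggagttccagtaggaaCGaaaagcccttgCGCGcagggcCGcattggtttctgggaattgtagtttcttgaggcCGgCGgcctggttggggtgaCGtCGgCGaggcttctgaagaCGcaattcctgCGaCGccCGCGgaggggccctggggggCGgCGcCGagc
ZNF14: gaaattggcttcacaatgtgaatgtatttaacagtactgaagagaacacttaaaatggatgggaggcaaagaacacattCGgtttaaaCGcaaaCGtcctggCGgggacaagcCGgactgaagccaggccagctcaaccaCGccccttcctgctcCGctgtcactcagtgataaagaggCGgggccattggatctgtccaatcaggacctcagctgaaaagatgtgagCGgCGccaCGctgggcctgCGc

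The ZNF613 and ZNF615 windows held 17 CG dinucleotides each. These counts come from the reference sequence and do not give methylation in the lines, which was not measured here. ZNF528 had 23 and ZNF880 had 17, ZNF140 had 25, ZNF260 had 15 and ZNF14 had 12. Over the 77 selected genes with an entry in the table, the median was 17 CG dinucleotides (quartiles 12 and 21), against 18 in the other 254 zinc finger genes with a line at 5 CPM or more and 19 over all 13722 genes with an entry. Where a gene had several starts in the table, the first was used. The motif GGGCGG, the GC box, was searched on both strands and found in 51.9% of the selected windows, 66.1% of the other expressed zinc finger genes and 60.6% of all genes. CCGGAA, the core of sites of ETS factors, was found in 41.6%, 40.2% and 21.1% respectively, so both zinc finger groups held it more often than genes at large. CACGTG, an E-box, was in 2.60% of the selected windows (2 of 77), 5.12% of the other expressed zinc finger genes and 8.24% of all genes. These matches describe the letters in the windows and were not tested.

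Translated GENCODE 29 coding sequences matched a pattern of the KRAB A box in 68 of the 90 selected genes (75.6%) and in 223 of the other 403 zinc finger genes (55.3%). On chromosome 19 it was 61 of 65 selected genes, and on other chromosomes 7 of 25. Of the 9 genes low in CCD841CoN, 2 matched. The median number of C2H2 fingers was 11.5 in the selected and 10.0 in the other genes. Among the 81 genes that were not low in CCD841CoN, 66 matched.

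The mixture libraries took no part in choosing the genes, so tests were run on them. A mixture nevertheless blends RNA of a cancer line with RNA of CCD841CoN. Sets of genes defined by their unmixed levels therefore move in a direction that the mixing sets. Calls for such sets describe how the mixtures followed the unmixed levels and are no separate support for the pattern. Each 10% or 50% mixture was compared with the 4 mixtures at 0.1%, which are almost pure CCD841CoN RNA and serve all these comparisons as shared controls, in edgeR's quasi-likelihood test over 14441 genes. A gene was called at a Benjamini-Hochberg adjusted p below 0.05. There was 1 library per line and percentage, so its spread was taken from the 0.1% and 1% groups. Within groups, chi-square per degree of freedom, a measure of difference, was 6.48 to 11.1 at 0.1% and 8.25 to 17.8 at 1%. In unmixed libraries it was 5.13 to 32.2 for CCD841CoN, 139 to 322 for LoVo and 117 to 159 for LS1034. For HT-29 it was 72.3 to 106 and for HCT116 85.6 to 315. The spread used thus held little of that between cancer RNA libraries. Adjusted p and SE for the 10% and 50% mixtures may therefore be too small. If the mixtures were made from the RNA of the unmixed libraries, they repeat the measurement and not the culture.

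In the 50% mixtures the selected genes were mostly lower than in the 0.1% mixtures. With 50% LoVo RNA, 32 of the 90 were called lower and 5 higher, where 19% and 25% of all genes tested were called lower and higher. The counts were 27 lower and 5 higher for LS1034 (all genes 21.4% and 26.4%), 41 and 5 for HT-29 (25.3% and 26.9%), and 24 and 8 for HCT116 (21.4% and 25.3%). Median log2 fold changes of the 90 genes were -0.91, -0.72, -1.02 and -0.76 in that order, beside medians over all genes between -0.01 and 0.04. Leaving out 1 of the 0.1% mixtures moved the counts of genes called higher to between 2 and 7, and the 50% HT-29 count called lower to between 31 and 34.

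Genes low in a line were next examined in the mixture with that line. For a gene nearly silent in the line, a level near 50% of that in CCD841CoN follows from the mixing alone. Of the 51 genes low in LoVo and at 5 CPM or more in CCD841CoN, 27 were lower in the 50% LoVo mixture, with a median log2 fold change of -1.03, and 46 were below all 4 of the 0.1% mixtures. The corresponding counts were 24 of 35 for LS1034 (median -1.29), 22 of 27 for HT-29 (median -1.41) and 19 of 37 for HCT116 (median -1.15). The median ratio of CPM to the mean of the 0.1% mixtures was 0.526 for LoVo, 0.434 for LS1034, 0.411 for HT-29 and 0.499 for HCT116. Of 543 other genes with the same levels in unmixed LoVo and CCD841CoN, 510 were below all 4 of the 0.1% mixtures with 50% LoVo RNA. Other genes with the same levels in the unmixed lines had medians of -0.98, -1.18, -1.42 and -1.19, and 77.5%, 84.0%, 91.3% and 83.7% of them were called lower. Selected genes at 5 CPM or more in both the line and CCD841CoN had medians between -0.28 and 0.35.

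**Figure D4:**
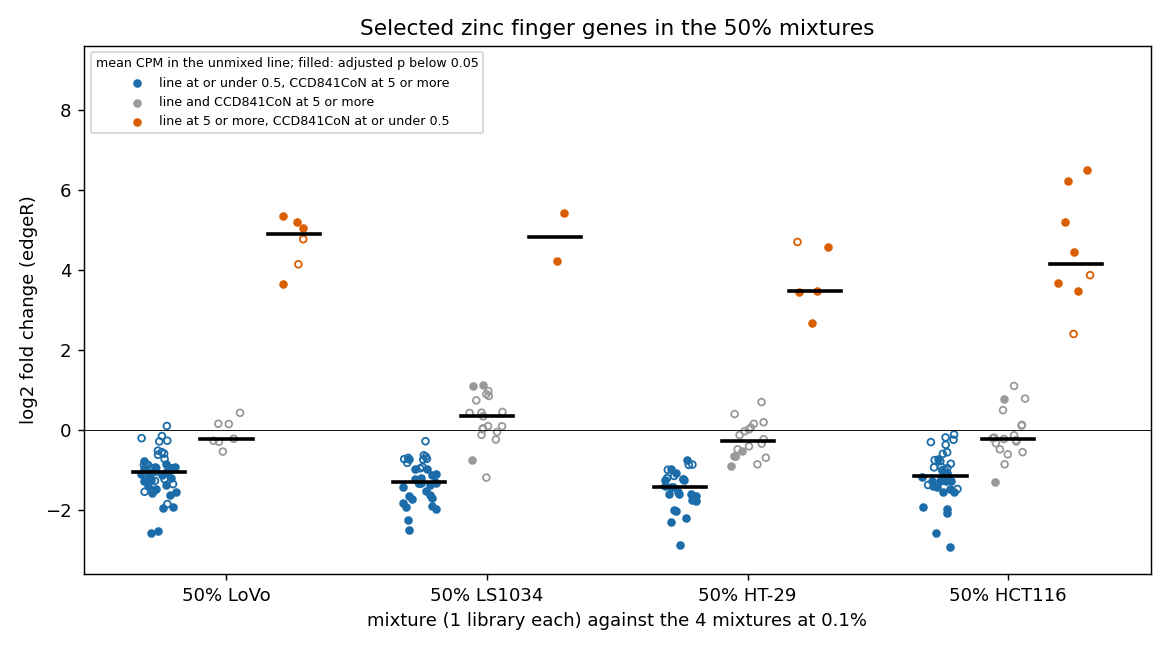
Log2 fold change (edgeR) of selected genes in each 50% mixture against the 4 mixtures at 0.1% (points, 1 gene each, filled at an adjusted p below 0.05; black bars are medians), by their mean CPM in the unmixed line and in CCD841CoN. Genes low in the line and expressed in CCD841CoN have medians of -1.03 to -1.41, and genes low in CCD841CoN and expressed in the line lie above 2.

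The 13 genes low in every cancer line were examined in the mean of the 4 mixtures. All 13 were lower in the mean of the 50% mixtures than in the 0.1% mixtures, with log2 fold changes of -2.03 to -1.03, a median of -1.25 and a highest adjusted p of 0.0219 (edgeR). In this comparison 27.7% of all genes tested were lower, and 53 of the 90 selected genes were. For 8 of the 13, every 50% library lay below every 0.1% library, which 14.8% of all genes tested did. Among other genes low in all 4 cancer lines, 273 of 279 were lower, with a median of -1.21, and for 251 of the 279 the 2 groups did not overlap. With the cancer line of the mixture as a block, 23 instead of 53 selected genes were lower. Of the 13 genes, 8 were, and ZNF135, ZNF610, ZNF626, ZNF671 and ZNF829 lost their call. Without the 50% LS1034 mixture the adjusted p of ZNF135 was 0.0931 (edgeR).

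ZNF880 stood at 32.7, 33.1, 38.8 and 33.8 CPM in the 0.1% mixtures with LoVo, LS1034, HT-29 and HCT116, and at 20.8, 16.9, 15.9 and 15.9 CPM in the 50% mixtures. The 2 groups did not overlap, and the log2 fold change of the mean was -1.12 ± 0.11 (SE; adjusted p = 5.31e-06, edgeR). ZNF528 went from 29.8, 23.5, 19.99 and 20.2 CPM to 9.01, 9.99, 11.002 and 8.93 CPM (-1.40 ± 0.17; adjusted p = 3.86e-05, edgeR). ZNF569, low in 3 cancer lines and at 1.34 CPM in HT-29, went from 12.3, 13.0, 10.9 and 17.4 CPM to 6.74, 3.78, 4.28 and 1.94 CPM (-1.93 ± 0.22; adjusted p = 1.84e-05, edgeR). ZNF829 had the second largest fall in the mean, -2.03 ± 0.50 (adjusted p = 0.00514, edgeR), but its 0.1% libraries held 3.72, 4.93, 5.87 and 1.38 CPM and its 50% libraries 1.20, 0.745, 0.896 and 1.59 CPM, so the groups overlapped. With the block for the cancer line its adjusted p was 0.0554.

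ZNF613, low in LoVo alone, was at 6.39, 8.46, 9.17 and 7.42 CPM in the 0.1% mixtures with LoVo, LS1034, HT-29 and HCT116. At 50% it was at 1.49 CPM with LoVo and at 7.69, 6.82 and 6.23 CPM with the other lines. The LoVo value was the lowest of the 8, with a log2 fold change of -2.51 ± 0.39 (adjusted p = 0.00042, edgeR), and the other 3 mixtures had adjusted p of 0.271 to 0.796. ZNF527, also low in LoVo alone, was at 0.963 CPM with LoVo and 6.02, 2.81 and 5.47 CPM with the others (LoVo -2.57 ± 0.52, adjusted p = 0.00219, edgeR). The mean over the 4 mixtures rested on the LoVo library for both: without it their adjusted p was 0.248 and 0.328. ZNF655, low in LS1034, was at 24.9 CPM in the 50% LS1034 mixture and at 37.9 to 46.3 CPM in the others (LS1034 -1.09 ± 0.19, adjusted p = 0.000769, edgeR). It was also called lower with HT-29 (-0.53 ± 0.17, adjusted p = 0.0257, edgeR), in which it was not low when unmixed. ZNF260 had 22.8 and 26.4 CPM with LoVo and HCT116, but 18.8 CPM with HT-29, in which its unmixed mean was 4.88 CPM, and 44.9 CPM with LS1034.

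A test of differences among the 50% mixtures of the 4 lines, in the same fit, called 26 of the 90 genes (28.9%; 41% of all genes tested; F test in edgeR, chosen after the data had been seen). These were 16 of the 38 genes low in 1 cancer line (42.1%), 4 of 14 low in 2, 6 of 19 low in 3, and none of the 13 low in all 4 or of the 6 low in none. At an unadjusted p below 0.05, 2 of the 13 and 0 of the 6 passed, and a value above the threshold does not show that the mixtures were alike.

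Genes low in CCD841CoN and at 5 CPM or more in the cancer line numbered 6 for LoVo, 2 for LS1034, 5 for HT-29 and 8 for HCT116. In the 50% mixture with that line each lay above all 4 of the 0.1% mixtures. So did 665 of 666, 682 of 683, 605 of 607 and 514 of 514 other genes with the same levels in the unmixed lines. Median log2 fold changes of the selected genes were 4.91, 4.83, 3.47 and 4.16. Those of the other genes were larger, at 7.07, 7.90, 7.67 and 6.53. ZNF165 was at 0.317, 0.387, 0.413 and 0.382 CPM in the 0.1% mixtures with LoVo, LS1034, HT-29 and HCT116, at 4.67, 2.96, 0.781 and 1.30 CPM in the 10% mixtures and at 16.7, 7.51, 4.50 and 9.001 CPM in the 50% mixtures. All 4 of the 50% values were called (log2 fold changes of 3.45 to 5.36, adjusted p of 2.43e-05 to 0.000404, edgeR). Of the 10% mixtures, those with LoVo (3.60 ± 0.56) and LS1034 (2.94 ± 0.57) were called, where 4.31% and 6.36% of all genes were called higher. No other selected gene was called higher at 10% (8.35% of all genes with HT-29 and 3.63% with HCT116), and at an unadjusted p below 0.05 there were 2 with HT-29 and 3 with HCT116 (edgeR). ZNF296, a zinc finger gene known from stem cell reprogramming, rose from 0.0453, 0.193, 0.413 and 0.229 CPM to 8.33, 9.56, 3.76 and 8.52 CPM and was called in each 50% mixture. ZNF385B, low in 2 of the cancer lines as well, had no count in the 50% LS1034 and HT-29 mixtures, 1.78 CPM with LoVo and 9.28 CPM with HCT116, and only the HCT116 value was called (adjusted p = 0.0295 in edgeR, 0.401 in DESeq2, and 0.067 to 0.0681 in edgeR without the 0.1% mixture of LS1034, HT-29 or HCT116). ZNF334, expressed in HT-29 alone among the unmixed lines, was at 3.18 CPM in the 50% HT-29 mixture and at 0, 0.372 and 0 CPM in the others (adjusted p = 0.0336 in edgeR, 0.0763 in DESeq2, and 0.0517 to 0.0723 in edgeR without the 0.1% mixture of LoVo, LS1034 or HT-29).

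**Figure D5:**
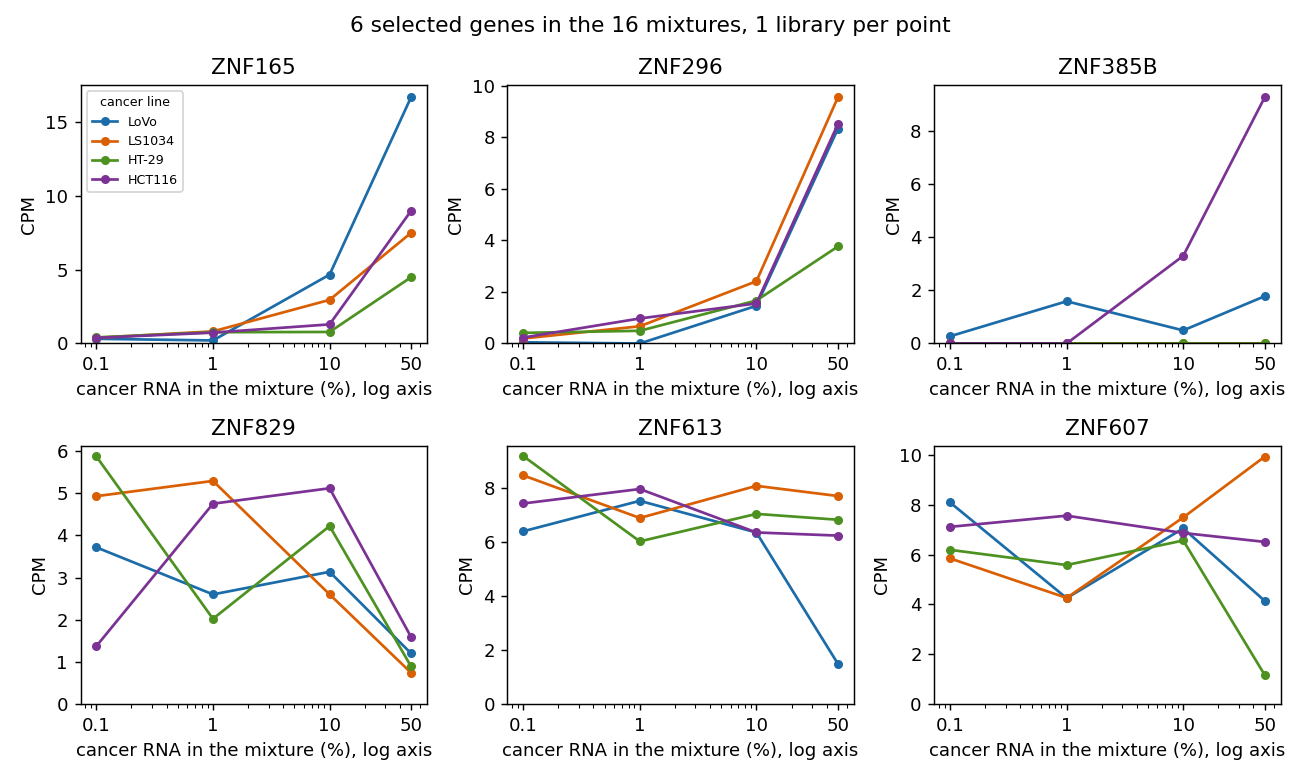
Level (CPM) of 6 selected genes in the 16 mixtures, 1 library per point, against the percentage of cancer RNA on a log axis, with 1 line per cancer cell line. ZNF165 and ZNF296 rise in all 4 lines, ZNF385B reaches 9.28 CPM with HCT116, ZNF829 ends at 0.745 to 1.59 CPM, ZNF613 drops to 1.49 CPM with LoVo, and ZNF607 drops to 1.17 CPM with HT-29.

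At 10% few selected genes differed. With HT-29, ZNF354C and ZNF563 were called lower, 2 of 90 (3.57% of all genes), and with HCT116 it was ZNF486, 1 of 90 (1.62%). No selected gene was called lower with LoVo or LS1034 in edgeR, where 1.12% and 2.33% of all genes were, and at an unadjusted p below 0.05 there were 0 and 3. DESeq2 called 1 lower with LS1034. ZNF563, at 4.13 to 4.87 CPM in the 0.1% mixtures, was at 0.677 CPM with 10% HT-29 and at 1.96 CPM with 50% HT-29, so its level did not follow the percentage. ZNF486 was at 1.17 CPM with 10% HCT116 and 2.49 CPM with 50% HCT116, and its call was lost without any 1 of the 0.1% mixtures (adjusted p of 0.0521 to 0.0751, edgeR).

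The calls of some genes did not match the lines in which they were low. A missing call does not show that the level stayed unchanged. ZNF607, low in LoVo alone and at 2.53 CPM in HT-29, was at 4.14 CPM in the 50% LoVo mixture (adjusted p = 0.135, edgeR) and at 1.17 CPM in the 50% HT-29 mixture (-2.67 ± 0.48, adjusted p = 0.000735). ZNF154, low in LoVo, LS1034 and HCT116 and at 0.658 CPM in HT-29, had its only called value with HT-29, at 0.0366 CPM against 1.99 to 3.53 CPM in the 0.1% mixtures, and stood at 1.11 to 2.11 CPM in the other 50% mixtures. ZNF772, low in LoVo alone and at 0.576 CPM in HCT116, was called with HCT116 (-2.12 ± 0.53, adjusted p = 0.00716) and not with LoVo (-1.22 ± 0.48, adjusted p = 0.0615).

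The partners of KRAB proteins and the other zinc finger families were compared between the unmixed lines, as the mean of the 4 cancer lines against CCD841CoN (edgeR; called at an adjusted p below 0.05 and a log2 fold change of at least 1 in either direction, as 24.8% of 14452 genes were higher and 22.3% lower, 47.1% in all). Lists are set beside a median over all genes of 0.22, which was 0.07 with DESeq2 size factors and 0.51 with library size alone. Of 28 co-repressor and heterochromatin genes, 11 were higher and 1 lower, with a median log2 fold change of 0.79. RESF1, a partner of SETDB1, was at 12.1 to 13.4 CPM in CCD841CoN and 42.5 to 223 CPM in the cancer libraries (2.55 ± 0.43, adjusted p = 8.27e-05). SUV39H2, a histone H3 methyltransferase, rose by 1.99 ± 0.30 and DNMT3B, a de novo DNA methyltransferase, by 1.499 ± 0.32, the latter from 2.57 to 3.17 CPM in CCD841CoN to 26.2 to 47.1 CPM in HCT116 and 3.51 to 6.20 CPM in LS1034. SETDB1 itself, outside the naming rule, rose by 1.26 ± 0.28, from a mean of 7.30 CPM to means of 18.0 to 25.3 CPM. TRIM28, also outside the rule, was at 121 to 139 CPM in CCD841CoN and 156 to 660 CPM in the cancer libraries, and its change of 0.98 ± 0.31 (adjusted p = 0.013) stayed under the fold limit, which it passed with library size alone (1.29) or without any of 4 single libraries (1.00 to 1.04). The 1 gene called lower, CHD3, a chromatin remodeller bound by TRIM28, was at 0.373 to 1.75 CPM in LS1034 and 14.9 to 30.4 CPM in CCD841CoN, and its change was -4.33 in LS1034 and -0.76 to -0.03 in the other lines. Without CCD841CoN replicate 1 the adjusted p of its mean was 0.0624. The lowest line mean of any of the 28 genes was 1.19 CPM, for CHD3 in LS1034.

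Among the 5 DNA demethylation genes, TET3 was higher (2.81 ± 0.68) and TET1 lower (-1.66 ± 0.58, adjusted p = 0.0211, and 0.0911 or 0.108 without CCD841CoN replicate 1 or 2). Single genes of the families named ZSCAN and ZFP, close relatives of the ZNF genes, had the pattern of the selected genes. Of 18 tested ZFP genes 6 were lower (33.3%, beside 22.3% of all genes) and 1 higher, with a median of -0.34. In all 38.9% of them were called, beside 47.1% of all genes. ZFP28 was at 14.3 to 18.9 CPM in CCD841CoN and at most 0.4997 CPM in a cancer library (-9.26 ± 0.79, adjusted p = 1.37e-07), and ZFP82, next to the longest run, was at 13.7 to 17.9 CPM against at most 1.02 CPM (-6.35 ± 0.79). ZFP3 had no count in LoVo and averaged 0.0767 CPM in HT-29 and 0.113 CPM in HCT116, but stood at 10.9 to 12.9 CPM in LS1034. Of 16 ZSCAN genes 3 were higher and 3 lower. The 18.8% lower and 37.5% called were both under the shares of all genes. ZSCAN18 had the widest gap, 14.5 to 17.8 CPM in CCD841CoN and at most 0.241 CPM in a cancer library. ZFP62 moved the other way, from 5.32 to 5.99 CPM in CCD841CoN to 15.5 to 126 CPM in the cancer libraries. Of 39 ZBTB genes 11 were higher and 2 lower (33.3% called), and of 7 ZKSCAN genes 2 were higher and 1 lower (42.9% called). The nearest genes outside the naming rule on each side of the selected genes, a list made after the data had been seen, had 15 higher and 20 lower of 61 tested (57.4% called). That list still holds related zinc finger genes, among them ZIK1 and ZFP28, ZFP82 and ZSCAN18 given above, so its share is not that of unrelated neighbours.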

How the data were processed

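RNA from 5 colon-derived lines and from mixtures was measured in 31 libraries. The deposited file, made by the authors, held a table of read counts for 17113 protein-coding genes, not normalized. Per the labels' protocols, libraries were made with a stranded kit after ribosomal RNA removal. Per the submitters' processing notes, STAR and featureCounts were used with hg19; versions, strand and multi-mapping settings are not given in the sources used here.

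CPM is 1000000 times the count over the library total. The zinc finger genes and the lists were chosen with earlier results of these data known, so counts over them are descriptions. Every selected gene may be named; values by library are given for the 3 with the highest level in each set low in the same lines (1 for sets of a single gene) and the 3 largest called changes in each direction of each 50% mixture, and list genes for the 4 largest called changes. Part of the genes this rule gives are named in the text. All 90 selected genes passed edgeR's filterByExpr in the mixtures, through whichever libraries expressed them.

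Tests used edgeR 4.0.16 and limma 3.58.1 in R 4.3.3 (quasi-likelihood, TMM scaling, Benjamini-Hochberg adjustment over all genes). A run on simulated counts gave every library the same spread. It therefore did not cover the larger spread between cancer RNA libraries. Python 3.11.15 with pandas 2.3.3, numpy 2.4.6 and matplotlib 3.10.9 gave levels, order and figures. Alternatives were other scalings, no filter, DESeq2 1.42.0, fewer groups in the fit, a block, stricter limits and each library left out. Same-numbered libraries of 2 cancer lines deviated together in 18 pairs (r of 0.108 to 0.762) but not those of a cancer line and CCD841CoN (12 pairs, -0.103 to 0.0174), so the number was a block only as an alternative. Promoters came from a RefSeq table on GRCh38.p14 and coding sequences from GENCODE 29.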

Additional observations from a re-analysis of the deposited data

Results flagged for a closer look

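In the 4 mixtures at 0.1%, 1 library stood apart from the other 3 for 5 of the 20 genes checked this way, those with the largest called changes in the mixtures, and for 10 of all 90, by the gap to its nearest neighbour as a share of the range. These were ZNF135 (7.02 CPM with HT-29), ZNF154 (3.53 CPM with HT-29), ZNF334 (0.535 CPM with HCT116), ZNF385B (0.272 CPM with LoVo) and ZNF704 (0.306 CPM with HCT116). Chance gives such a gap in about 1 in 20 groups of 4 when values are normally distributed. ZNF334, ZNF385B and ZNF704 had no count in some of the 0.1% libraries, so that share does not apply to them. The part of these libraries in the comparisons was not tested beyond leaving each out.

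The change at 50% differed between the lines by the F test in edgeR for 8 of those 20 genes, while it called 26 of all 90. The adjusted p was 0.0105 for ZNF154, 0.0194 for ZNF287, 0.011 for ZNF486, 0.0152 for ZNF527, 0.0434 for ZNF569, 0.00558 for ZNF607, 0.00683 for ZNF613 and 0.0357 for ZNF738. The 20 genes were picked for large changes in these same 50% libraries, so the F test is no separate support for them. The share called among them was no higher than the share of all genes tested given above. ZNF287, low in LS1034, HT-29 and HCT116 and at 10.1 CPM in LoVo, was at 10.8 CPM in the 50% LoVo mixture. It was at 3.29, 4.40 and 5.61 CPM in the mixtures with the other lines. ZNF738, low in LoVo and highest in LS1034, was at 4.38 CPM with LoVo, 17.1 CPM with LS1034, 4.55 CPM with HT-29 and 8.93 CPM with HCT116.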

How the results depend on the processing

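The limits kept 87 to 95 genes when 1 unmixed library was left out and 46 when 10 CPM was asked of the highest line. TMM-scaled CPM gave 93, of which 87 were selected, and a lower limit of 0.25 CPM gave 79. No result recomputed under these settings changed direction.

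With the cancer line as a replicate block, the mean of the 50% mixtures called 4885 genes instead of 8239 and 23 selected genes lower instead of 53. With 1 of the 0.1% mixtures left out, selected genes called higher at 50% were 3 to 4 for LoVo, 3 to 4 for LS1034, 2 to 6 for HT-29 and 6 to 7 for HCT116. Without the filter they were 3 for LS1034. In the same way the 10% mixtures called 511 to 560 genes for LoVo instead of 784 and 494 to 560 for HCT116 instead of 758, where DESeq2 called 1303 and 1440. At 10% the selected genes called lower with HT-29 fell from 2 to 1 (1 to 1 with a library left out, and 1 with library size only or without the filter), those called higher were 0 to 1, and the 1 gene called lower with HCT116 fell to 0 without the filter and to 0 to 0 with a library left out. For 10% LS1034, DESeq2 gave 2 higher and 1 lower, and the fit of the 0.1% and 10% mixtures alone gave 2 higher. The co-repressor list gave 12 calls for LoVo instead of 7 and 14 for HT-29 instead of 9 with library size only, and 7 to 11 for LS1034 with a library left out, the lowest without LS1034 replicate 2.

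Under the replicate block of unmixed libraries by number, no count moved by over 1.5 times. Single named calls near the threshold, such as ZNF829 with LS1034 (adjusted p = 0.0532 with library size only) and ZNF738 with LS1034 (0.0585 without the filter), were lost under some settings; the cause was not tested. Levels near 0.1 CPM rest on a few counts, so differences among low lines were not detectable at this depth.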
